A study of Homo sapiens with 2 samples.

Results

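The genes GADD45GIP1, NFIX, LYL1, TRMT1, NACC1, STX10, IER2 and CACNA1A lie side by side on the short arm of chromosome 19, in band 19p13.13. They are 8 of the 36601 genes in the deposited tables. They were chosen on measured values, since their levels in both libraries were known when they were picked, along with their position. Their levels and the ratios between the libraries are therefore given as a description, with no test.

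Libraries of prostate epithelial cells were compared by 10x Genomics 3′ single-cell RNA sequencing, which counts RNA molecules by unique molecular identifiers (UMIs). RWPE-ERG-mAKT is the RWPE1 line with retroviral ERG, driven by the HNRNPA2B1 promoter, and myristoylated AKT1, a form of the kinase held active at the membrane. RWPE1, an immortalized line of prostate epithelium, was the comparison. Its label gives only the vector, pBABE-puro in the methods, while the study's text calls the cells parental. About 10000 cells were loaded for each of the conditions, by the methods, and 1 library was made of each. The files hold more barcodes than that, 17355 for RWPE-ERG-mAKT and 12504 for RWPE1, and the reason is not given. There is no replicate check, and the 95% intervals below cover counting error only.

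These genes have no shared function. IER2 is an immediate early gene, transcribed within minutes of a growth factor or stress signal before any new protein is needed, and it encodes a nuclear protein. TRMT1 is a tRNA methyltransferase that places a dimethylguanosine in many tRNAs. NACC1 is a BTB-domain regulator of transcription, STX10 is a SNARE protein of the trans-Golgi network and endosomes, NFIX is a transcription factor of the nuclear factor I family, and LYL1 is a basic helix-loop-helix factor of blood cells. GADD45GIP1 is a component of the large subunit of the mitochondrial ribosome, and CACNA1A is the pore subunit of the P/Q-type calcium channel of neurons.

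In GRCh38, the genome of the files, with gene spans from GENCODE release 29, the genes run from base 12953119 to 13633025 of chromosome 19, a stretch of 679.9 kb. GADD45GIP1 (12953119 to 12957236, minus strand) lies 38371 bases before NFIX (12995608 to 13098796, plus strand). LYL1 (13099033 to 13103161, minus), TRMT1 (13104902 to 13117567, minus), NACC1 (13118103 to 13141141, plus), STX10 (13144058 to 13150383, minus) and IER2 (13150415 to 13154908, plus) follow closely. CACNA1A (13206442 to 13633025, minus) begins 51533 bases after IER2. NFIX to IER2 thus fills 159.3 kb. TRMT1 and NACC1 point away from each other with 535 bases between their spans, and so do STX10 and IER2 with 31 bases.

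The stretches before the starts of IER2, TRMT1 and NACC1 are shown because these genes start head to head with a neighbour. They are the 250 bases before each RefSeq start on GRCh38.p14, at 13150161 to 13150410 (plus), 13116741 to 13116990 (minus) and 13118014 to 13118263 (plus). The RefSeq starts of STX10 and IER2 are 36 bases apart, so the IER2 window also covers the start of STX10. The RefSeq start of TRMT1 lies inside its GENCODE span, 1524 bases from that of NACC1. Capitals mark CCGGAAG, a strong site of ETS factors such as ERG, TGACG, the core of the cyclic AMP response element, and the GC box GGGCGG, each on either strand.
IER2: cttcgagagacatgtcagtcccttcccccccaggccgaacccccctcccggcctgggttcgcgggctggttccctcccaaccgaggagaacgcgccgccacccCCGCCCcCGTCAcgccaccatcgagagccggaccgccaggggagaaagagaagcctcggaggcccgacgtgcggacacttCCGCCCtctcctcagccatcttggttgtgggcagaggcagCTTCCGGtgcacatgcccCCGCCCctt
TRMT1: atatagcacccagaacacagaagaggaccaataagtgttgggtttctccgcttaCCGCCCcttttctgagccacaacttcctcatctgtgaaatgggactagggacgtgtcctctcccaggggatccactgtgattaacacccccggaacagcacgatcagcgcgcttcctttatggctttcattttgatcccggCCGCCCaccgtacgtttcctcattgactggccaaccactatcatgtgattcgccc
NACC1: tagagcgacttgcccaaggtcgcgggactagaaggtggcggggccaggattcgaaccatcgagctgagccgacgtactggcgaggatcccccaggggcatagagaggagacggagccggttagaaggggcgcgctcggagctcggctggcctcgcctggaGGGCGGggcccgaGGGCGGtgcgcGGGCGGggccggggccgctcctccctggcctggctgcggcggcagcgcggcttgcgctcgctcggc

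CCGGAAG stood once in the IER2 window, near its start, and in 8.52% of all 35097 RefSeq windows of this length. TGACG also stood once in the IER2 window, against 21.2% of all windows, and it overlaps neither of the other motifs there. The GC box stood 3 times in the IER2 window, 2 times in the TRMT1 window and 3 times in the NACC1 window, and 42.6% of all windows hold it. No full cyclic AMP response element (TGACGTCA), AP-1 site (TGACTCA) or CArG box lay in the 250 bases before IER2. A match is a string of letters and not a measured binding site.

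Cells with more than 2500 detected genes and under 7.5% mitochondrial UMIs were read: 14140 of 17355 barcodes of RWPE-ERG-mAKT, with 225121037 UMIs, and 9967 of 12504 barcodes of RWPE1, with 192789925 UMIs. The study's methods state a range of 200 to 2500 expressed genes, so the cells read here lie above its upper limit. Their median depths were 13601 UMIs in RWPE-ERG-mAKT cells and 16972 UMIs in RWPE1 cells, and 37 of these barcodes occurred in both libraries. The 7 markers of prostate epithelium were all detected, with summed levels of 5290 and 5650 UMIs per 1000000 (CPM) in RWPE-ERG-mAKT and RWPE1 cells. KLK3, a marker of secretory luminal cells, was at or near 0 in both. ERG was at 20.8 CPM in RWPE-ERG-mAKT cells and 1.44 CPM in RWPE1 cells, while AKT1 was at 19.1 and 22.01 CPM, so AKT1 counts do not tell the libraries apart. Among markers of other cell types, the fibroblast gene DCN stood at 23.1 CPM in RWPE-ERG-mAKT cells and 0.228 CPM in RWPE1 cells, and COL1A1 at 2.89 and 1.60 CPM, with PDGFRA, LUM and COL1A2 near 0 in both. The 5 fibroblast markers summed to 26.0 CPM in RWPE-ERG-mAKT cells and 1.98 CPM in RWPE1 cells. Their part in the results below was not tested.

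IER2 differed most between the libraries. It had 146814 UMIs in RWPE-ERG-mAKT cells, or 652 CPM (649 to 656), against 11135 UMIs in RWPE1 cells, or 57.8 CPM (56.7 to 58.8). The log2 ratio was 3.497 (3.47 to 3.53), which is 11.3-fold. TRMT1 was second, at 104 CPM in RWPE-ERG-mAKT cells and 22.03 CPM in RWPE1 cells, with a log2 ratio of 2.24 (2.19 to 2.29).

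Of the other genes, STX10, whose start adjoins that of IER2, was at 89.3 CPM in RWPE-ERG-mAKT cells and 30.3 CPM in RWPE1 cells, a log2 ratio of 1.56 (1.52 to 1.60). GADD45GIP1, which had the most UMIs of the 8, was at 771 and 274 CPM in RWPE-ERG-mAKT and RWPE1 cells, a log2 ratio of 1.49 (1.48 to 1.51). CACNA1A had only 677 UMIs in RWPE-ERG-mAKT cells and 210 UMIs in RWPE1 cells, or 3.01 and 1.09 CPM, with a log2 ratio of 1.47 (1.24 to 1.70). These 3 genes had like ratios at very unlike counts. The counts of this 3′ assay are not scaled by gene length.

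NACC1, at 48.5 CPM in RWPE-ERG-mAKT cells and 25.6 CPM in RWPE1 cells, had a log2 ratio of 0.92 (0.87 to 0.97). NFIX differed little, at 89.5 CPM in RWPE-ERG-mAKT cells and 80.1 CPM in RWPE1 cells, with a log2 ratio of 0.16 (0.13 to 0.19). LYL1 was almost undetected in these epithelial cells, with 24 UMIs in the RWPE-ERG-mAKT library and 21 UMIs in the RWPE1 library. Its log2 ratio of -0.03 (-0.94 to 0.89) allows a difference of either sign.

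**Figure D1:**
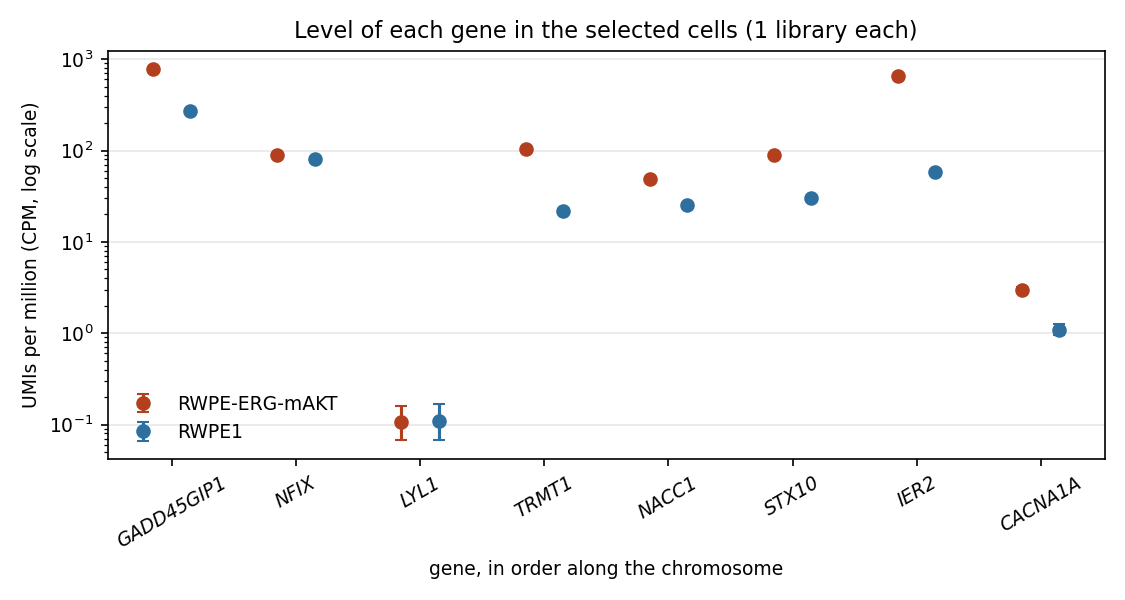
CPM on a log axis for the 8 genes, in their order along chromosome 19, in RWPE-ERG-mAKT (red) and RWPE1 (blue) cells; bars are exact Poisson 95% intervals, mostly smaller than the points. IER2 shows the widest gap, 652 against 57.8 CPM, while NFIX and LYL1 lie almost level.

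Of the 8 genes, 7 had at least 100 UMIs in both libraries together, the minimum set for a measured gene, and LYL1 did not. In RWPE-ERG-mAKT cells 5 of these 7 stood more than 2-fold higher, beside 11.1% of all 17995 measured genes. None was more than 2-fold lower, beside 18.8% of measured genes. Since the genes were picked for their levels, nothing is read from these counts. The median log2 ratio was 1.48 over the 8 genes and -0.16 over all measured genes. Among the 7366 genes that reached 20 CPM in either library, 26, IER2 included, had a ratio as high as that of IER2, and 67 as high as that of TRMT1. Scaling the libraries by the median of ratios adds 0.14 to every log2 ratio and brings NACC1 just past 2-fold, at 1.06.

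The neighbours on either side were read next. On the GADD45GIP1 side, the chaperone CALR had a log2 ratio of -0.07. AC092069.1, an unnamed transcript beside it, was at 0.773 CPM in RWPE-ERG-mAKT cells and 2.24 CPM in RWPE1 cells, a log2 ratio of -1.53. On the CACNA1A side, CCDC130, a splicing factor, had a log2 ratio of 0.36, MRI1, an enzyme of methionine salvage, -0.60, and AC008686.1 -0.97.

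Within 1 Mb, 73 other measured genes had a median log2 ratio of 0.02, compared with -0.25 over the 1203 measured genes of chromosome 19. In RWPE-ERG-mAKT cells 6 of the 73 stood more than 2-fold higher and 6 more than 2-fold lower. Beside them, 11.1% of all measured genes were higher and 18.8% lower, and on chromosome 19 93 of the 1203 were higher and 256 lower. The higher ones outside the cluster were ZNF136 (1.20), C19orf53 (1.19), MISP3 (1.18) and the heat shock co-chaperone DNAJB1 (1.30). The remaining pair, AC011446.1 (2.36) and AC011446.2 (2.78), are annotated on the opposite strand at the end of NACC1 and of IER2. They had 96 and 265 UMIs in the RWPE-ERG-mAKT library and 16 and 33 UMIs in the RWPE1 library, and whether reads of IER2 or NACC1 were counted on them is uncertain. The lower ones were ZNF564 (-1.38), MAN2B1 (-1.15), AC092069.1 (-1.53), ZSWIM4 (-1.09), AC020916.1 (-1.996) and AC008569.2 (-2.12). Both higher and lower genes thus lay on each side of the cluster. Between the 8 genes, AC138474.1, opposite NFIX, had 78 UMIs in the RWPE-ERG-mAKT library and 35 in the RWPE1 library, and DAND5, AC007787.1 and AC005546.1 fell short of the minimum.

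**Figure D2:**
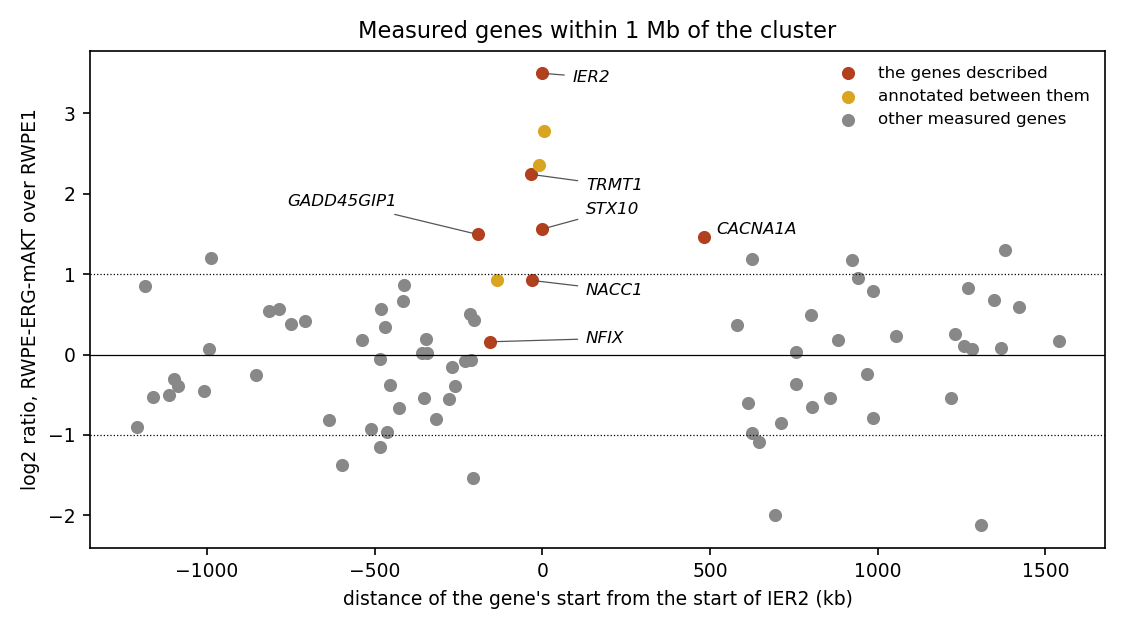
Log2 of the RWPE-ERG-mAKT level over the RWPE1 level for each measured gene within 1 Mb of the 8 genes, against the distance of its start from that of IER2 in kb; dotted lines mark 2-fold. IER2 stands at 3.497 and TRMT1 at 2.24, while the other measured genes (grey) scatter around 0.

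The share of cells with a UMI followed the levels. To compare cells of unequal depth, each cell was thinned to 5000 UMIs, which kept 14134 RWPE-ERG-mAKT cells and all 9967 RWPE1 cells. IER2 was then found in 84.3% (83.7 to 84.9) of RWPE-ERG-mAKT cells and 24.2% (23.4 to 25.1) of RWPE1 cells, against 97.3% and 59.998% before thinning. TRMT1 was found in 38.8% (38.0 to 39.6) of RWPE-ERG-mAKT cells and 10.1% (9.47 to 10.7) of RWPE1 cells, and before thinning in 68.3% and 32.4%. STX10 was found in 34.5% and 14.5%, NACC1 in 21.7% and 11.6%, and GADD45GIP1 in 95.3% and 73.5% of RWPE-ERG-mAKT and RWPE1 cells. CACNA1A reached 1.40% of RWPE-ERG-mAKT cells and 0.552% of RWPE1 cells, and LYL1 0.0566% and 0.1003%. No cell type that lacks these genes was present to measure free RNA, so LYL1 gives the only low mark.

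NFIX was alike in both libraries by this share, at 32.5% (31.7 to 33.2) of RWPE-ERG-mAKT cells and 32.3% (31.4 to 33.2) of RWPE1 cells. Its spread among cells was not. At least 3 NFIX UMIs of 5000 stood in 4.71% (4.37 to 5.07) of RWPE-ERG-mAKT cells and 1.18% (0.981 to 1.42) of RWPE1 cells. The variance of its counts over their mean was 1.69 in RWPE-ERG-mAKT cells and 1.08 in RWPE1 cells, where 1 is the value of pure counting.

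IER2 was the most uneven, with a variance over mean of 5.46 in RWPE-ERG-mAKT cells and 1.16 in RWPE1 cells. In RWPE-ERG-mAKT, 15.7% of cells had no IER2 UMI among 5000, 37.1% had 1 to 2, 25.7% had 3 to 5, 14.6% had 6 to 10 and 7.004% had 11 or more, with a highest cell of 138. In RWPE1, 75.8% of cells had none, 0.793% had 3 or more and the highest cell had 7. The same ratio was 1.36 and 1.02 for TRMT1, 1.44 and 0.988 for STX10, and 1.16 and 1.03 for NACC1 in RWPE-ERG-mAKT and RWPE1 cells.

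Whether the neighbours moved together from cell to cell was read as Pearson's r of log2(1 + UMIs) over the thinned cells. Cells of a library share its preparation and are not replicates, so r is a description. In RWPE-ERG-mAKT cells the 5 genes NFIX, TRMT1, NACC1, STX10 and IER2 were positively correlated in all 10 pairs, with r between 0.149 and 0.406 and a median of 0.229 (n = 14134 cells). IER2 had r = 0.406 with NFIX, 0.369 with STX10, 0.292 with TRMT1 and 0.228 with NACC1. These 5 were singled out after their values were seen. In RWPE1 cells the same 10 pairs had r between -0.018 and 0.0171, with a median of 0.0034 (n = 9967 cells).

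GADD45GIP1 did not join them. In RWPE-ERG-mAKT cells its r was -0.214 with IER2, -0.152 with NFIX and -0.042 with TRMT1, although its level was 2.82-fold that in RWPE1 cells. CACNA1A and LYL1 were too sparse to read, with r of 0.0314 and -0.0059 with IER2. Over all 28 pairs the median r was 0.0191 in RWPE-ERG-mAKT cells and 0.0022 in RWPE1 cells.

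**Figure D3:**
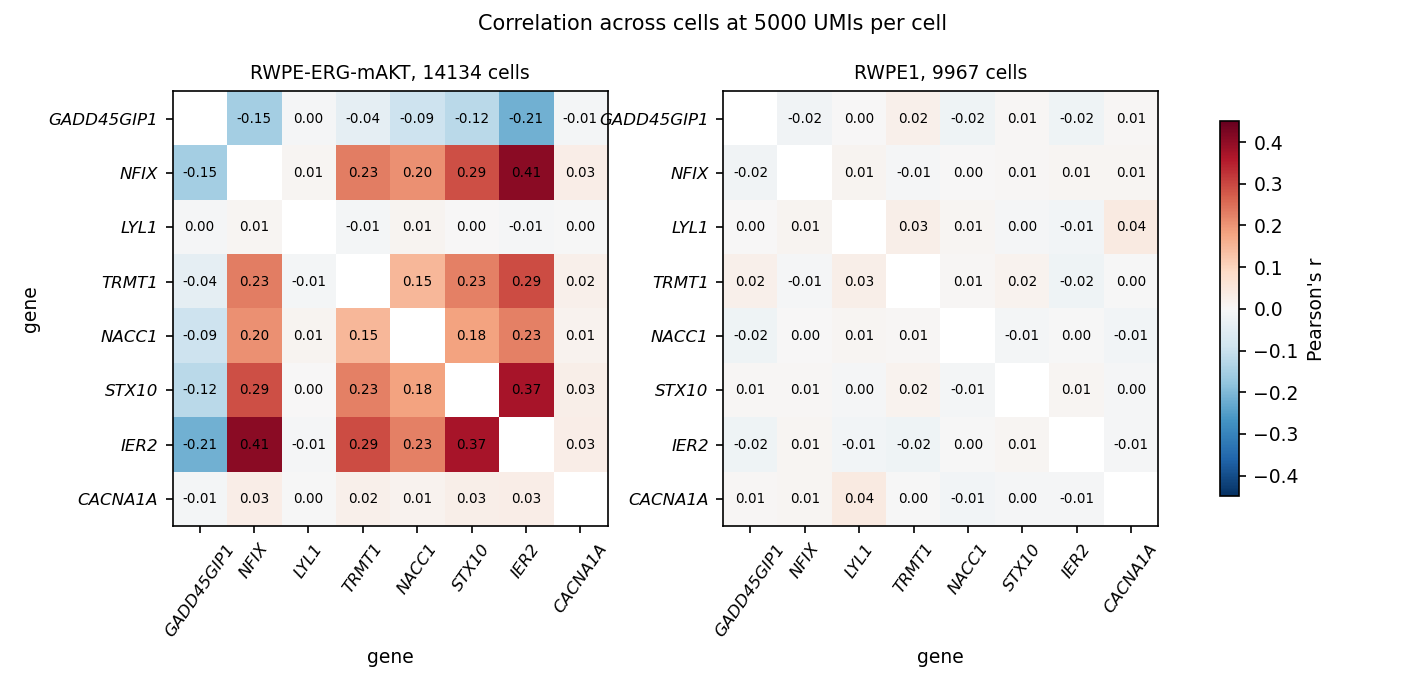
Pearson's r of log2(1 + UMIs) between each pair of the 8 genes across cells thinned to 5000 UMIs, in RWPE-ERG-mAKT (left) and RWPE1 (right) cells, genes in chromosome order. NFIX, TRMT1, NACC1, STX10 and IER2 form a red block on the left, with r from 0.149 to 0.406, and none on the right.

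As background, r was computed for each pair of adjacent genes of the genome found in at least 5% of thinned cells. In RWPE-ERG-mAKT cells, 8457 such pairs had a median r of 0.0083 and a 99th percentile of 0.0943, and 77 pairs (0.910%) reached 0.1. STX10 and IER2 ranked 6 among them, NFIX and TRMT1 16, NACC1 and STX10 23, and TRMT1 and NACC1 35. GADD45GIP1 and NFIX ranked 8456, next to last. In RWPE1 cells, 8874 pairs had a median r of 0.0066 and a 99th percentile of 0.0761, and STX10 and IER2 ranked 3738. Since r grows with the level of a gene in sparse counts, these ranks compare pairs of unequal level.

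By distance, r of 0.2 or more with IER2 in RWPE-ERG-mAKT cells was found within 1 Mb only for genes of the 159.3 kb from NFIX to IER2. Over the whole genome only 21 of 8498 genes reached 0.2, so no boundary is read from its absence among flanking genes. The 35 flanking genes within 1 Mb that were found in at least 5% of cells had r between -0.160 and 0.130, with a median of -0.0151. The highest was JUNB (0.130), itself an immediate early gene whose start lies at -358.9 kb from that of IER2, and the lowest C19orf53 (-0.160). CALR had r = -0.0616. In RWPE1 cells, 37 such flanking genes had r between -0.018 and 0.0938, with JUNB again the highest.

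**Figure D4:**
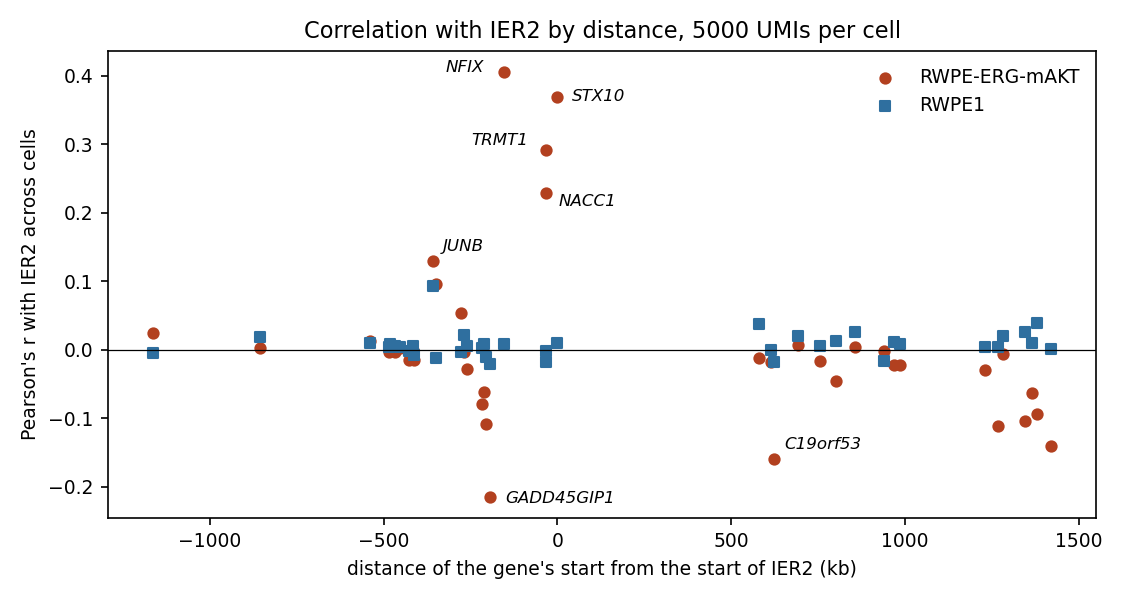
Pearson's r with IER2 across thinned cells, for genes within 1 Mb found in at least 5% of RWPE-ERG-mAKT cells, against the distance of their starts from that of IER2 in kb. In RWPE-ERG-mAKT (red circles) NFIX, STX10, TRMT1 and NACC1 rise to 0.228 to 0.406 and GADD45GIP1 lies at -0.214, while in RWPE1 (blue squares) JUNB is the highest at 0.0938.

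Over the whole genome, the 5 genes most like IER2 in RWPE-ERG-mAKT cells, of 8498 compared, were NFIX, the basal keratin KRT14 (r = 0.393), STX10, TSHZ2 (0.320), a zinc finger gene, and ID1 (0.310), an inhibitor of basic helix-loop-helix factors. Those most like TRMT1 were IER2, KRT14 (0.232), NFIX, STX10 and RPS6 (0.190), a ribosomal protein gene. Of the 21 genes with r of at least 0.2 with IER2, 4 lay on chromosome 19, 5 on chromosome 20 and 5 on chromosome 9. Genes of other chromosomes thus stood among those most like IER2, with KRT14 above STX10, and TSHZ2 and ID1 above TRMT1 and NACC1.

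In RWPE1 cells the genes most like IER2 were JUNB (0.0938), EGR1 (0.0855), ID1 (0.0844), IER3 (0.0801) and CDKN1A (0.0789), of which JUNB, EGR1 and IER3 are immediate early genes. Those most like TRMT1 were KRT18, EBNA1BP2, NEK3, XPA and CASC19, with r of at most 0.0444. No member of the cluster was among either list.

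RWPE-ERG-mAKT cells were then classed by their IER2 UMIs after thinning. In the 990 cells with 11 or more IER2 UMIs, NFIX stood at 306 CPM, against 40.3 CPM in the 2216 cells with none, a log2 ratio of 2.93 (2.77 to 3.08). STX10 stood at 265 CPM in the top class and 42.9 CPM in the class with none, a log2 ratio of 2.63 (2.47 to 2.78). TRMT1 stood at 235 and 61.8 CPM in these classes (1.93, 1.79 to 2.07), and NACC1 at 115 and 30.1 CPM (1.93, 1.74 to 2.13). All 4 increased at each step from class to class. CACNA1A had 22 UMIs in the top class and 24 in the class with none, or 4.44 and 2.17 CPM, a log2 ratio of 1.04 (0.13 to 1.93). As with its r, CACNA1A was too sparse for more to be read from this.

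GADD45GIP1 did not rise along these classes. GADD45GIP1 stood at 534 CPM in the top class and 863 CPM in the class with none, a log2 ratio of -0.69 (-0.76 to -0.63). CALR had a log2 ratio of -0.23, CCDC130 -0.24 and C19orf53 -0.57. Of 36 flanking genes within 1 Mb with at least 100 UMIs in the 2 classes, JUNB alone had a log2 ratio above 1, at 1.07. Among all 9972 genes compared, 247 (2.48%) were above 1, a like share, so nothing is read from this count. The median over the flanking genes was -0.22. By chromosome, the median log2 ratio of top class over none was 0.04 over all 9972 genes, -0.02 over 579 genes of chromosome 19, 0.18 over 443 genes of chromosome 9 and 0.18 over 287 genes of chromosome 20.

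**Figure D5:**
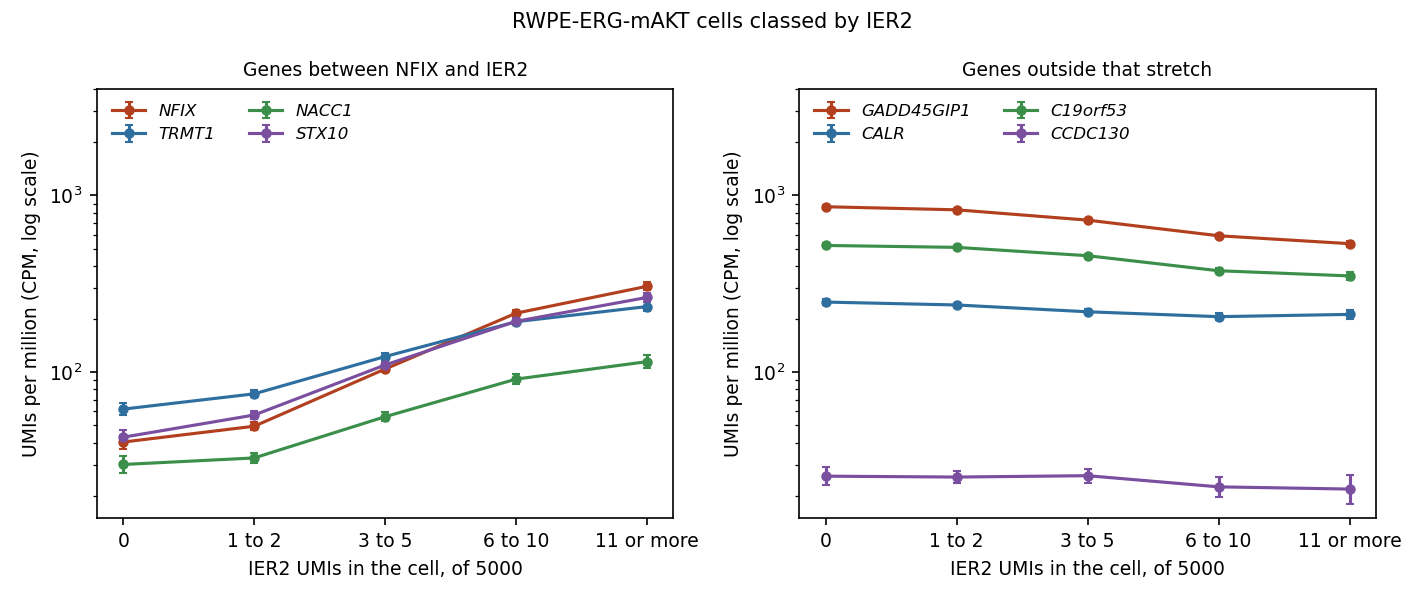
CPM (log axis) in RWPE-ERG-mAKT cells classed by their IER2 UMIs of 5000, for NFIX, TRMT1, NACC1 and STX10 (left) and for 4 genes outside that stretch (right); bars are exact Poisson 95% intervals. NFIX goes up to 306 CPM in the top class, against 40.3 CPM in the class with none, while GADD45GIP1 is at 534 and 863 CPM.

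The class with no IER2 UMI can be set beside the thinned RWPE1 cells. TRMT1 was at 61.8 CPM in this class of RWPE-ERG-mAKT cells and 21.4 CPM in RWPE1 cells. STX10 was at 42.9 and 31.2 CPM, and NACC1 at 30.1 and 25.2 CPM. NFIX was lower in this class, at 40.3 CPM, than in RWPE1 cells, at 80.4 CPM. Over all thinned RWPE-ERG-mAKT cells NFIX was at 104.3 CPM, a log2 ratio of 0.37 to RWPE1 cells. For NFIX, the RWPE-ERG-mAKT classes thus lay on both sides of the RWPE1 level. For TRMT1, STX10 and NACC1, every class lay above it.

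Other measures changed along the IER2 classes. Cells of the top class had a median of 10562.5 UMIs and 3643 genes before thinning, against 14803 UMIs and 4316.5 genes in the class with none, and a mitochondrial share of 2.80% against 2.63%. KRT14 was 2.94-fold higher in the top class than in the class with none, KRT5 1.20-fold, TSHZ2 6.26-fold, ID1 4.19-fold, FOS 2.23-fold and EGR1 2.11-fold. ERG had a log2 ratio of -0.24 (-0.61 to 0.11) and AKT1 -0.10 (-0.47 to 0.27). The part of depth and of these genes in the result was not tested.

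The reading was turned round by classing cells on the summed UMIs of NFIX, TRMT1, NACC1 and STX10, a split added after the data were seen. IER2 was at 1972 CPM in the 574 RWPE-ERG-mAKT cells with 7 or more such UMIs and 371 CPM in the 4229 cells with none, which is 5.32-fold. In RWPE-ERG-mAKT cells with 2 to 3 such UMIs, the nearer class for RWPE1, IER2 was at 845 CPM. In RWPE1 cells, IER2 was at 61.3 CPM in cells with 2 to 3 such UMIs and 59.5 CPM in cells with none. The 109 RWPE1 cells with 4 to 6 had 51.4 CPM (34.1 to 74.3), and only 1 RWPE1 cell had 7 or more. At all values of the sum with 100 cells or more, IER2 stood higher in RWPE-ERG-mAKT cells than in RWPE1 cells.

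In RWPE1, only 79 cells had 3 or more IER2 UMIs. Between these and the 7554 cells with none, the log2 ratio was 0.19 (-0.87 to 1.08) for TRMT1, 0.11 (-0.81 to 0.89) for STX10, 0.49 (-0.39 to 1.24) for NACC1 and -0.28 (-0.90 to 0.27) for NFIX. At this depth no difference in these 4 genes was detectable. The intervals of all 4 lie below the values across the RWPE-ERG-mAKT classes, which are cut at a higher IER2 count. Those values were 2.93 for NFIX, 2.63 for STX10 and 1.93 for both TRMT1 and NACC1. In the nearer RWPE-ERG-mAKT class of 3 to 5 IER2 UMIs the rise over none was smaller. There NFIX was at 104.3 against 40.3 CPM, STX10 at 109.9 against 42.9 CPM, TRMT1 at 122.6 against 61.8 CPM and NACC1 at 56.0 against 30.1 CPM. For TRMT1 and NACC1 this smaller rise falls within the RWPE1 intervals, so it does not tell the libraries apart. Between the same RWPE1 cells, JUNB had a log2 ratio of 1.30 (0.97 to 1.61), EGR1 1.27 (0.87 to 1.65), KRT14 0.94 (0.86 to 1.01) and the flanking gene CCDC130 1.48 (0.76 to 2.12), the last from 20 UMIs in the 79 cells.

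Within RWPE-ERG-mAKT, detection of ERG separated the genes little. IER2 was at 674 CPM in the 1293 thinned cells with an ERG UMI and 747 CPM in the 12841 cells without, a log2 ratio of -0.15 (-0.19 to -0.10). TRMT1 was at 110 CPM in cells with an ERG UMI and 114 CPM in cells without (-0.06, -0.17 to 0.06). At 20.8 CPM of ERG, a cell without an ERG UMI need not lack ERG.

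The genes were last set beside the relatives of each. Of 47 measured immediate early genes, 23 stood more than 2-fold higher and 3 more than 2-fold lower, with a median log2 ratio of 0.93. RHOB, a small GTPase, was at 48.0 CPM in RWPE-ERG-mAKT cells and 3.54 CPM in RWPE1 cells (3.76), JUN, a subunit of AP-1, at 205 and 28.3 CPM (2.86), and the stress factor ATF3 at 70.4 and 13.7 CPM (2.36). Without IER2 the counts were 22 higher and 3 lower of 46, with a median of 0.86. Over all measured genes, 11.1% were more than 2-fold higher and 18.8% lower.

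Of 35 tRNA methyltransferase genes, TRMT1 included, 6 were more than 2-fold higher and 1 more than 2-fold lower, with a median log2 ratio of 0.32, beside the same 11.1% and 18.8% of all measured genes. TRMT6, a subunit of the enzyme for methyladenosine, was at 116 CPM in RWPE-ERG-mAKT cells and 31.7 CPM in RWPE1 cells (1.88), THUMPD3, which acts on guanosine, at 56.2 and 17.3 CPM (1.70), and TRMO at 25.4 and 7.94 CPM (1.68). TRMT1 had the highest ratio of the 35.

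Of 51 genes of the large mitochondrial ribosomal subunit, 10 were more than 2-fold higher and 1 more than 2-fold lower, with a median log2 ratio of 0.59, again beside 11.1% and 18.8%. GADD45GIP1 (1.49) lay beside MRPS30 (1.70), MRPL50 (1.63) and MRPL40 (1.53) in this list. Of 16 syntaxins, 3 were more than 2-fold higher and 1 lower, with a median of 0.02, beside those shares. STX18, of the endoplasmic reticulum, was higher (1.28), STX17 had a log2 ratio of 0.31, and STX6, which like STX10 serves the trans-Golgi network, was lower (-1.30).

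The nuclear factor I genes did not share a direction. NFIA was at 141 CPM in RWPE-ERG-mAKT cells and 349 CPM in RWPE1 cells (-1.31), NFIB at 72.3 and 159 CPM (-1.13), NFIC at 112 and 64.9 CPM (0.79) and NFIX at 0.16. NACC2, the relative of NACC1, had a log2 ratio of -0.50. Of the GADD45 family, GADD45A had 0.93 and GADD45B -0.29. Of the 5 measured partners and relatives of LYL1, 1 was more than 2-fold higher and 1 lower, with TCF3 at -0.12 and TCF12 at -0.10. Of 10 calcium channel pore subunits only 4 were measured, and CACNA1A was the only one of them more than 2-fold higher.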

How the data were processed

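RWPE-ERG-mAKT and RWPE1 cells were each profiled as 1 droplet library with 10x Genomics 3′ chemistry. The authors aligned to hg38 and quantified with Cell Ranger 7.1.0. The deposited values are raw UMI counts for each gene and barcode, without normalization. Whether intronic reads were counted is not given in the sources used here.

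Cells with more than 2500 genes and under 7.5% mitochondrial UMIs were summed by library to CPM. Exact Poisson intervals were computed for levels and exact conditional intervals for ratios. Shares carry Clopper-Pearson intervals. All are at 95%. No doublets were removed. Cells were thinned without replacement (seed 1) to 5000 UMIs for shares, correlations and classes, and 6 shallower cells were left out. Ratios, intervals and thinning were tested on simulated data. GENCODE release 29 gave positions for 34616 of the 36601 genes, and RefSeq promoter windows matched all 8 genes. Scripts ran in Python 3.11.15 with scipy 1.17.1, numpy 2.4.6 and pandas 2.3.3, and matplotlib 3.10.9 drew the figures.

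The genes and lists were chosen with earlier results of these data known. The text names the 8 genes, the 3 nearest measured genes on each side, transcripts between them, every measured gene within 1 Mb past 2-fold, of each list the 4 genes of at least 20 CPM that differed most, the 5 most like IER2 and TRMT1, and the markers. A nearest gene and a marker are not reported here. The mitochondrial ribosome list holds symbols of MRPL and a number, with GADD45GIP1 and MRPS30. The classes of cells by IER2, and the genes followed in them, were chosen after the data were seen.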

Additional observations from a re-analysis of the deposited data

How the results depend on the processing

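No result could be tested against replicates, and no paired analysis was possible because each condition is 1 library. Each gene's ratio was recomputed under 9 alternatives, of which 7 gave a value for LYL1: other cell filters, other scaling, thinning, and leaving out the 5% of cells with most UMIs or the 5 RWPE1 barcodes with at least 2 UMIs of microglia or choroid plexus genes. IER2 kept a log2 ratio between 3.21 and 3.77, TRMT1 between 1.67 and 2.997, GADD45GIP1 between 0.95 and 1.63, STX10 between 0.47 and 1.754, NACC1 between 0.53 and 1.08, NFIX between -0.38 and 0.40 and LYL1 between -0.83 and 0.13. In cells with 200 to 2500 genes, the range the study states (2775 of RWPE-ERG-mAKT, 362 of RWPE1), the median of the members was 1.11. CACNA1A had a log2 ratio of -0.34 (-1.82 to 1.60) there, from 38 UMIs in RWPE-ERG-mAKT cells and 4 in RWPE1 cells. This interval allows either sign and includes its main value of 1.47. In cells with 7.5% or more mitochondrial UMIs (107 and 1575), 3 members were more than 2-fold higher and the median was 0.95. Median-of-ratios scaling gave a median of 1.62. Where these differences come from was not tested.

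The median r over the 10 pairs of NFIX, TRMT1, NACC1, STX10 and IER2 in RWPE-ERG-mAKT cells was 0.122 at 2000 UMIs per cell, 0.321 at 10000 and 0.366 with no thinning, and in RWPE1 cells it lay between -0.0015 and 0.0107. The flanking median was -0.071 within 250 kb, -0.077 within 3 Mb and 0.16 under median-of-ratios scaling. At a limit of 1.5-fold, 20.3% of measured genes were higher and 32.1% lower.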
